A study of Homo sapiens with 4 samples.

Results

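The HIF subunits and the enzymes that sense oxygen through them were examined in HT1080 cells with a KDAC8 knockout. The members were the rows of the deposited count table named HIF1A, EPAS1, HIF3A, ARNT, ARNT2, VHL, EGLN1, EGLN2, EGLN3 and HIF1AN, taken by name. All 10 names matched a single row each, out of 60675 gene rows. HT1080 is a human fibrosarcoma line that carries an activated NRAS allele, and KDAC8, a lysine deacetylase, is the product of HDAC8. The series holds 1 group of 4 replicate knockout libraries, and no parental or other control library was analysed here. The cells were grown in MEM with serum in a CO2 incubator, no low-oxygen treatment is named, and the labels do not say whether the line is 1 clone or whether the replicates were separate cultures. Any p-value across libraries therefore reflects the scatter of these samples alone, and that scatter may be technical.

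A HIF transcription factor is a dimer of an oxygen-regulated alpha subunit and a constant beta subunit. When oxygen is present, EGLN enzymes hydroxylate prolines of the alpha subunit, VHL binds the hydroxylated form and brings it to an ubiquitin ligase, and the alpha subunit is degraded. HIF1AN hydroxylates an asparagine of the alpha subunit and keeps the coactivators EP300 and CREBBP from binding. The oxygen response acts mainly on the alpha protein, so transcript levels describe which parts of the system are made and not how active it is. EGLN1 and EGLN3 are themselves genes that HIF induces.

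Total counts were 39454210 to 45828807 per library. Levels are given as CPM, counts scaled to the effective library size, with the SD over 4 libraries (n = 4). Levels of different genes are compared only as CPM per kilobase, with all annotated exons joined into the length unless another length is named. In this bulk RNA, fewer cells with a transcript and less transcript per cell cannot be told apart. HDAC8, the targeted gene, had 80, 89, 95 and 107 counts in replicates 1 to 4 (2.18 ± 0.242 CPM), and such whole-gene counts do not check the edit. All 6 fibrosarcoma and mesenchymal markers (VIM, CD44, MMP14, PLAU, FOSL1 and COL6A3) were detected, beside 58.8% of protein-coding rows. Their summed level was 10927 to 11677 CPM per library. The 5 blood cell markers summed to at most 0.0742 CPM, with HBB at 0 counts. Of the 5 epithelial markers, CLDN4 (2.49 ± 0.438 CPM) was detected, while EPCAM, CDH1 and KRT5 were at 0 counts, and the list summed to 2.0 to 2.99 CPM.

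Of the 10 members, 8 were detected, meaning 1 CPM or more in all 4 libraries, and HIF3A and EGLN3 were not. The same threshold was passed by 58.8% of protein-coding rows and by 21.4% of all gene rows. The detected members spread over a 32.0-fold range per kilobase, with HIF1A at 122 ± 5.80 and ARNT at 3.83 ± 0.388 CPM per kilobase. The order per kilobase was HIF1A, EPAS1, VHL, EGLN1, HIF1AN, EGLN2, ARNT2 and ARNT, with EGLN3 far below and HIF3A at 0. Neighbours in that order overlapped in their libraries in 2 places, between VHL and EGLN1 and between HIF1AN and EGLN2.

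**Figure D1:**
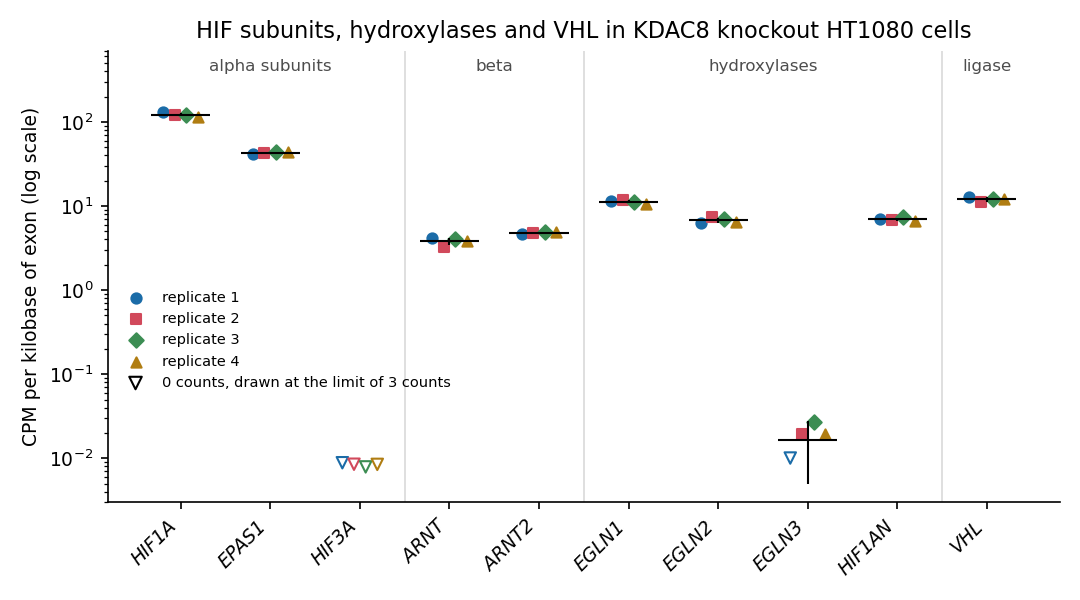
Level of each member in CPM per kilobase of joined exons (log axis) in the 4 KDAC8 knockout libraries, with each replicate as a point, the mean as a horizontal line and the SD as a vertical line. HIF1A and EPAS1 lie above all other members, and EGLN3 and HIF3A lie at the bottom, with libraries at 0 counts drawn as open triangles at the level that 3 counts would give.

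Among the alpha subunits, HIF1A transcripts were the most abundant, EPAS1 transcripts followed, and HIF3A had none. HIF1A (ENSG00000100644, chromosome 14, 61695513 to 61748259, GRCh38, forward strand) encodes the alpha subunit present in most tissues. It had 27031, 26357, 28454 and 25190 counts in replicates 1 to 4, which gave 669, 626, 628 and 596 CPM and a mean of 629.6 ± 29.9 CPM. Replicate 1 was highest and replicate 4 lowest, 1.12 times apart. Per kilobase, HIF1A ranked 230 among 11570 detected protein-coding rows, and 98.0% of them were lower.

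EPAS1 (ENSG00000116016, chromosome 2, 46293667 to 46386703, forward strand) encodes HIF-2 alpha, known from endothelium and from kidney cancers that lack VHL. It had 307, 314, 318 and 316 CPM in replicates 1 to 4, a mean of 314 ± 4.71 CPM, and its libraries lay within 1.04 times of each other. Per kilobase it ranked 747 among the detected protein-coding rows. Of 6 endothelial markers, TIE1, a receptor tyrosine kinase, was detected at 108 ± 5.24 CPM. The other endothelial markers were below 1 CPM, with TEK at 0.654 ± 0.11, KDR at 0.565 ± 0.0461, VWF at 0.0593, PECAM1 at 0.0297 and CDH5 at 0.024 CPM on average. The list summed to 103 to 115 CPM per library, nearly all of it TIE1, and its part in the EPAS1 level was not tested.

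HIF1A exceeded EPAS1 in 4 of 4 libraries. The log2 ratios of HIF1A to EPAS1 per kilobase were 1.63, 1.5, 1.49 and 1.42 in replicates 1 to 4, a mean of 1.51 ± 0.09 or 2.84-fold. In an exact sign-flip permutation test (two-sided) p was 0.13, also after adjustment over 8 ratios, and no smaller p is possible with 4 libraries. The ratio narrowed but kept its direction with other lengths, at 1.39 ± 0.09 per kilobase of the longest transcript and 1.04 ± 0.09 per kilobase of coding sequence. HIF1A made up 74.0% ± 1.14 of the alpha transcripts per kilobase of exon and 67.2% ± 1.31 per kilobase of coding sequence, and EPAS1 the remainder.

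HIF3A (ENSG00000124440, chromosome 19, 46297046 to 46343433, forward strand) encodes an alpha subunit with splice forms that can restrain the other alpha subunits. It had 0 counts in each of the 4 libraries, which allows a level of up to 0.0176 CPM over the 4 libraries together (3 counts). Against that limit, HIF1A was at least 57980-fold higher per kilobase of exon and at least 28080-fold higher per kilobase of coding sequence. For EPAS1 the bounds were at least 20394-fold and at least 13680-fold. These limits cover counting error only, and RNU4-2, a splicing RNA used in every cell, also had 0 counts in all 4 libraries of this table. A 0 here therefore does not show by itself that a gene is not transcribed. Of the 4 protein-coding rows nearest to HIF3A, PPP5C, 3.56 kb beyond its end, was detected at 66.9 ± 5.24 CPM, while IGFL1 and CCDC8 had 0 counts and IGFL2 stood at 0.0355 ± 0.0315 CPM. The flanking rows were chosen after the member levels were seen.

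The bases upstream of the RefSeq starts (GRCh38.p14) of the alpha subunit genes are shown because the transcripts of these paralogs lay at opposite ends of the order. Capitals mark the core of the HIF binding motif, ACGTG or GCGTG on either strand. The HIF1A stretch is chr14:61695263-61695512, the EPAS1 stretch chr2:46297157-46297401 and the HIF3A stretch chr19:46296792-46297041, all on the forward strand and outside annotated exons of the gene.
HIF1A: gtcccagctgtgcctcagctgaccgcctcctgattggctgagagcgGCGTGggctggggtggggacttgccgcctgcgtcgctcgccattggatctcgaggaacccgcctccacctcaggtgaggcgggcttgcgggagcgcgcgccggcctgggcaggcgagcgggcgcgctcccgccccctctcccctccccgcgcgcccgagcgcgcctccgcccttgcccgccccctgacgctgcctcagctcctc
EPAS1: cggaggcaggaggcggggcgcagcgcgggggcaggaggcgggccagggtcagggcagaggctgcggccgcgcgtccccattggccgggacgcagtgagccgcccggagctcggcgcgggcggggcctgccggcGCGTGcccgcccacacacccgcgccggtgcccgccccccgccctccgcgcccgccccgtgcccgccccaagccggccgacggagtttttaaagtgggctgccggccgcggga
HIF3A: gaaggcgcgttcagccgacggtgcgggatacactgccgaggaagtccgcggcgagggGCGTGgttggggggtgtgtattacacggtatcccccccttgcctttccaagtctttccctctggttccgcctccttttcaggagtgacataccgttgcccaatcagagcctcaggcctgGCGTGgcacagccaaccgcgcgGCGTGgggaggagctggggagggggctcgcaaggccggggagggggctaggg
The first windows of all 3 genes were rich in G and C, with 73.0% in HIF1A, 80.0% in EPAS1 and 68.3% in HIF3A, against a median of 58.7% over 35116 RefSeq windows. Each held CpG at 0.6 of its expected frequency or more (0.782, 0.979 and 0.762 for HIF1A, EPAS1 and HIF3A), as did 48.9% of all windows. HIF3A, with 0 counts, held 3 motif matches in its first window, against 1 each in HIF1A and EPAS1. At least 3 matches were found in 10.1% of all windows, and at least 1 in 48.4%. The further windows of HIF1A and HIF3A held none.

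The beta subunits were the least abundant of the detected members per kilobase. ARNT (ENSG00000143437, chromosome 1, 150809705 to 150876768, reverse strand), which encodes HIF-1 beta and also serves the dioxin receptor AHR, had 26.9, 21.4, 26.6 and 24.8 CPM in replicates 1 to 4, a mean of 24.9 ± 2.53 CPM. Replicate 2 was the low library, and the other 3 lay within 24.8 to 26.9 CPM. ARNT2 (ENSG00000172379, chromosome 15, 80404350 to 80597937, forward strand), a paralog best known from neural tissue, had 36.1, 36.9, 37.9 and 37.9 CPM, a mean of 37.2 ± 0.877 CPM. ARNT2 was thus present beside ARNT in a mesenchymal line, and its libraries scattered less than those of ARNT.

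Per kilobase, ARNT stood at 3.83 ± 0.388 and ARNT2 at 4.81 ± 0.113 CPM. The log2 ratios of ARNT to ARNT2 were -0.18, -0.54, -0.26 and -0.36 in replicates 1 to 4, a mean of -0.33 ± 0.16 (exact sign-flip permutation, p = 0.13, the smallest possible). Per kilobase of the longest transcript, ARNT was the lower in 3 of 4 libraries, with a mean of -0.13 ± 0.16, which is within the spread between libraries. Per kilobase of coding sequence the mean was -0.72 ± 0.16. ARNT2 made up 55.8% ± 2.65 of the beta transcripts per kilobase of exon and 62.2% ± 2.52 per kilobase of coding sequence.

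Alpha transcripts outnumbered beta transcripts many times. The alpha subunits together stood at 165 ± 5.29 and the beta subunits at 8.63 ± 0.405 CPM per kilobase, with ratios of 19.6, 20.4, 18.4 and 18.3 in replicates 1 to 4. Per kilobase of coding sequence the ratio was 13.2 ± 0.633. HIF1A alone exceeded ARNT by 5.00 ± 0.14 on the log2 scale per kilobase of exon and by 4.55 ± 0.14 per kilobase of coding sequence, in 4 of 4 libraries. Other factors of the bHLH-PAS family that pair with ARNT also had transcripts: AHR, AHRR and SIM2 together reached 1.34 ± 0.0910 times the summed level of ARNT and ARNT2 per kilobase.

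**Figure D2:**
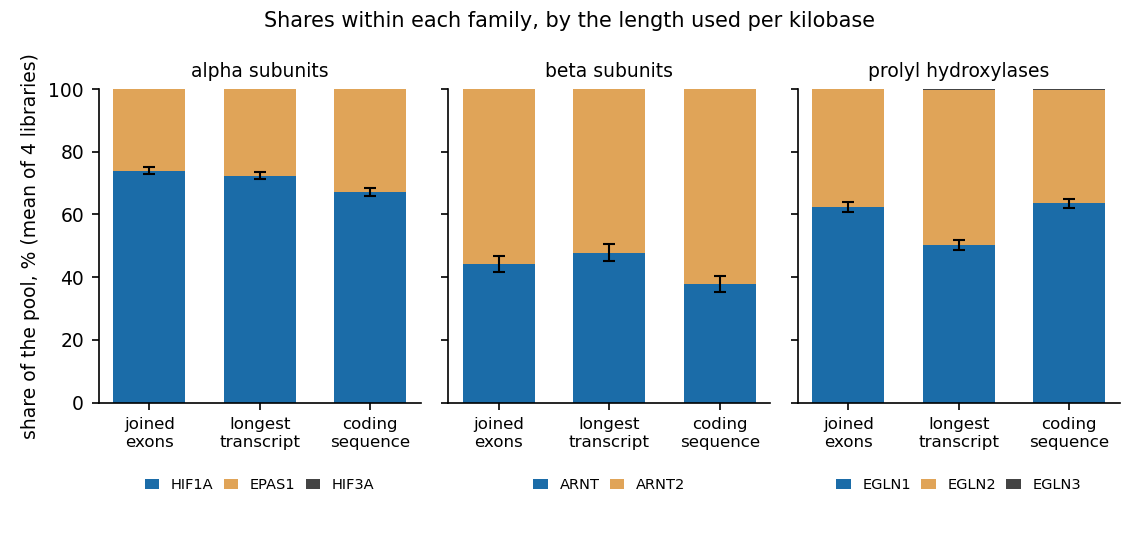
Share of each member in its family, in percent of the summed level per kilobase, as the mean of 4 KDAC8 knockout libraries for 3 choices of gene length; error bars are the SD of the lowest segment. HIF1A holds 67.2% to 74.0% of the alpha subunits under each length, whereas the share of EGLN1 among the prolyl hydroxylases is 50.1% to 63.6%, and EGLN3 and HIF3A are too small to see.

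Of the prolyl hydroxylases, EGLN1 and EGLN2 were expressed and EGLN3 was nearly absent. EGLN1 (ENSG00000135766, chromosome 1, 231363751 to 231425044, reverse strand) encodes PHD2, the main HIF prolyl hydroxylase in cells with normal oxygen. It had 83.5, 85.9, 81.1 and 77.0 CPM in replicates 1 to 4, a mean of 81.9 ± 3.79 CPM. EGLN2 (ENSG00000269858, chromosome 19, 40798996 to 40808433, forward strand) encodes PHD1, a nuclear form, and had 41.5, 48.2, 46.2 and 42.5 CPM, a mean of 44.6 ± 3.13 CPM. Within each gene the highest and lowest libraries were less than 1.5 times apart.

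Per kilobase, EGLN1 exceeded EGLN2 by 0.73 ± 0.09 on the log2 scale, or 1.66-fold, in 4 of 4 libraries (exact sign-flip permutation, p = 0.13, the smallest possible). That gap depended on the length used. Per kilobase of the longest transcript it was 0.01 ± 0.09, with EGLN1 the higher in 1 of 4 libraries, and per kilobase of coding sequence it was 0.81 ± 0.09. EGLN2 shares 2012 exonic bases with RAB4B-EGLN2, a readthrough row that had 21, 16, 10 and 33 counts in replicates 1 to 4, or 1.05% of the EGLN2 counts. Adding that row to EGLN2 left a ratio of 0.72.

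EGLN3 (ENSG00000129521, chromosome 14, 33924231 to 34462774, reverse strand) encodes PHD3, the form most strongly induced by HIF in many cell types. It had 0, 6, 9 and 6 counts in replicates 1 to 4, or 0, 0.142, 0.199 and 0.142 CPM. With 21 counts in all, the exact Poisson 95% interval was 13 to 32.1 counts, so the level was measured only roughly, and no difference between libraries was detectable at this depth (adjusted p = 0.142 in the chi-square test run without a count minimum). In summed counts, EGLN1 was 671-fold higher than EGLN3 per kilobase (439 to 1085 from the interval of the EGLN3 count), and EGLN2 was 405-fold higher (265 to 654). Per kilobase of coding sequence the EGLN1 ratio was 372 and the EGLN2 ratio 212. Both lie below those intervals, which cover counting error and not the choice of length. Per kilobase of the longest transcript, EGLN1 and EGLN2 each stood at 11.5 CPM and EGLN3 at 0.0424 CPM. With that length the gap between EGLN1 and EGLN3 was smaller than with coding sequence. The processed copy EGLN3P1 on chromosome 12 had 0, 2, 4 and 2 counts, and reads of EGLN3 and its copy may have been split between the rows.

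Of the 4 protein-coding rows flanking the annotated span of EGLN3, 3 were detected and NPAS3 was not. SPTSSA, whose annotated span overlaps that of EGLN3 on the same strand with no shared exon bases, had 29.5 ± 1.71 CPM. Beyond the annotated ends, EAPP had 21.0 ± 1.38 CPM and SNX6 had 104 ± 6.25 CPM on one side, and NPAS3 had 0.0237 ± 0.0335 CPM and AKAP6 1.31 ± 0.201 CPM on the other. The annotated span reaches 34462774, whereas the RefSeq start of the promoter window is at 33951074. EAPP and SNX6 therefore lie much farther from that start than from the annotated end. EGLN3-AS1, the antisense row, had 0 counts.

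The start regions of the hydroxylase genes are shown because 2 of them, EGLN1 and EGLN3, are known HIF targets with transcripts at opposite ends of the family. Capitals mark the same motif core. EGLN3 is given as chr14:33951082-33951324, reverse strand, outside annotated exons, and EGLN1 (chr1:231422288-231422312, reverse strand) and EGLN2 (chr19:40799130-40799159, forward strand) as the bases around the match. The EGLN1 stretch lies within an annotated EGLN1 exon.
EGLN3: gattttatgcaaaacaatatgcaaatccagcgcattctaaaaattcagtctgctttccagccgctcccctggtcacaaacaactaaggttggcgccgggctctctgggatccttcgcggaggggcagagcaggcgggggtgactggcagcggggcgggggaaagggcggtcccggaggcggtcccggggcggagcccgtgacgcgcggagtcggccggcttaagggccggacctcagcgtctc
EGLN1: gggccgtggtgtACGTGcagagcgc
EGLN2: gcggggcgcggtCACGTGcccaccgggcga
The EGLN3 window held no match, EGLN1 held 1 ACGTG that begins 13 bases upstream of the start, and EGLN2 held ACGTG on both strands in 1 palindrome, counted as 2 overlapping matches. ACGTG on either strand was found in 21.4% of all windows. The EGLN3 window had a CpG observed-over-expected ratio of 0.857, against 0.884 in EGLN1 and 1.01 and 0.968 in the EGLN2 windows. Its G and C content was 65%, against 80.0% in EGLN1 and 76.3% and 79.3% in EGLN2, so the EGLN3 window was the lowest of the family in both. The windows of ARNT and HIF1AN held no match. In all, 8 of the 10 members had a window in the table, ARNT2 and VHL did not, and 5 of those 8 held a match in at least 1 window. Counted by window, 5 of 12 held a match, beside 48.4% of all windows, so matches were not more common among the members.

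**Figure D3:**
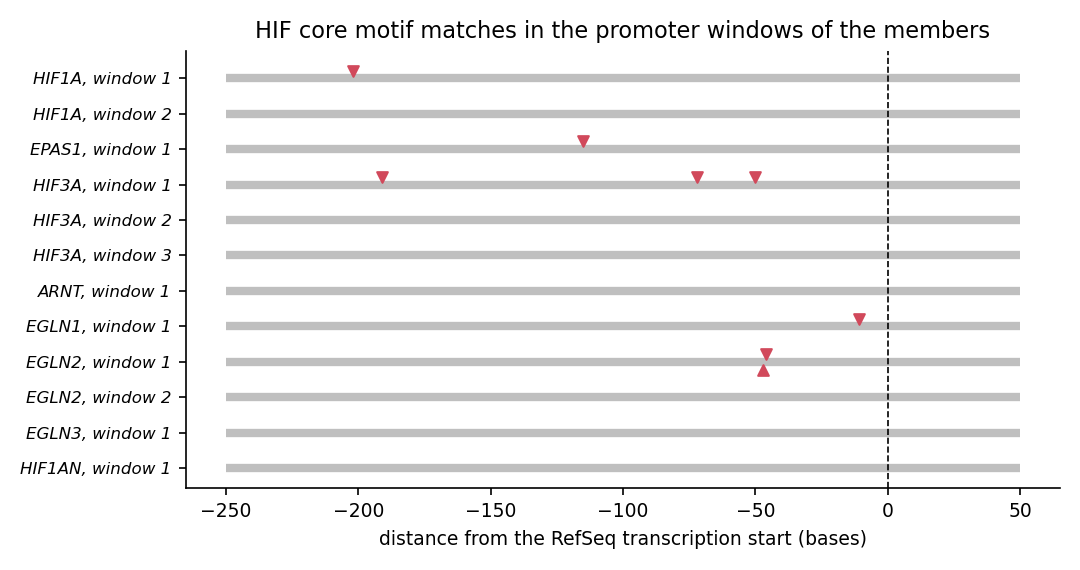
Positions of ACGTG and GCGTG matches in the 12 RefSeq promoter windows of 8 members, by distance in bases from the start (dashed line); triangles above a bar are on the strand of the gene and the triangle below is on the opposite strand. HIF3A, with 0 counts, has 3 matches in its first window, and EGLN3 has none.

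The asparaginyl hydroxylase and the ligase subunit lay at middle levels. HIF1AN (ENSG00000166135, chromosome 10, 100529072 to 100559998, forward strand), which encodes FIH, had 98.2, 95.2, 102 and 92.4 CPM in replicates 1 to 4, a mean of 97.0 ± 4.29 CPM. Per kilobase of exon EGLN1 stood at 11.3 ± 0.522 CPM and HIF1AN at 6.96 ± 0.308 CPM, although EGLN1 had fewer counts. The log2 ratio of EGLN1 to HIF1AN was 0.69 ± 0.08 per kilobase of exon in 4 of 4 libraries, and it turned to -0.53 ± 0.08 per kilobase of coding sequence. The annotated exons of HIF1AN span 13950 bases and its coding sequence 1047 bases, so its place in the order rests on the length chosen. NDUFB8, on the opposite strand, shares 325 exonic bases with HIF1AN and had 54.2 ± 5.86 CPM, and since strand use is not stated, reads from the shared bases cannot be told apart.

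VHL (ENSG00000134086, chromosome 3, 10141008 to 10152220, forward strand), the substrate receptor of the ligase, had 53.6, 46.4, 50.4 and 50.8 CPM in replicates 1 to 4, a mean of 50.3 ± 2.97 CPM. Per kilobase VHL and EGLN1 were close, at 11.9 ± 0.706 and 11.3 ± 0.522 CPM, and their libraries overlapped. VHL was the higher in 3 of 4 libraries, with a mean log2 ratio of 0.08 ± 0.13 (exact sign-flip permutation, p = 0.375, adjusted p = 0.429 over 8 neighbouring pairs). HIF1AN and EGLN2 were likewise close per kilobase of exon, with a log2 ratio of 0.04 ± 0.11 (exact sign-flip permutation, p = 0.625, adjusted p = 0.625). With other lengths they were not close. The ratio was 1.34 ± 0.11 per kilobase of coding sequence, with HIF1AN the higher in 4 of 4 libraries, and -0.62 ± 0.11 per kilobase of the longest transcript. Per kilobase of exon, the other 6 neighbouring pairs kept their order in 4 of 4 libraries. Each had p = 0.13 in the exact sign-flip permutation test and an adjusted p of 0.167. The pairs were formed from the mean levels of these same libraries, so the test is no independent check of the order. The VHL-like retrogene VHLL had 2 counts, both in replicate 4.

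Against the alpha transcripts, the hydroxylases were low. EGLN1, EGLN2 and EGLN3 together stood at 18.1 ± 0.873 CPM per kilobase, 0.109 ± 0.00544 times the alpha subunits, and HIF1AN at 0.0421 ± 0.00152 times. Per kilobase of coding sequence these ratios were 0.275 ± 0.0132 and 0.253 ± 0.0088. HIF1A alone exceeded VHL by 3.35 ± 0.08 on the log2 scale per kilobase of exon and by 1.65 ± 0.08 per kilobase of coding sequence.

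Differences between the replicate libraries were small for the detected members. A chi-square test of homogeneity against the effective library sizes, with Benjamini-Hochberg adjustment over 16790 rows with a mean of 10 counts or more, called 6 of the 8 detected members as varying beyond counting noise (HIF1A, ARNT, VHL, EGLN1, EGLN2 and HIF1AN). The same test called 59.2% of all rows tested and 67.3% of rows at 1 CPM or more. The share called rose with level. Among protein-coding rows within 1.25 times a member's level it ran from 66.3% for ARNT to 99.2% for HIF1A. It was 96.8% for EPAS1 and 77.1% for ARNT2, the detected members not called. The calls therefore do not set the members apart from rows of like level. No member had a range of 1.5 times or more between its highest and lowest library, against 12.3% of rows tested and 6.58% of rows at 1 CPM or more that varied with such a range. The chi-square adjusted p was 2.36e-36 for HIF1A, whose counts are high enough that a 1.12-fold range stands out from counting.

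ARNT had the widest range of the detected members, 1.26 times (chi-square adjusted p = 1.66e-06), and its low library was replicate 2. Without replicate 2 the ARNT call was lost (adjusted p = 0.070), as was that of VHL (adjusted p = 0.0633, against 0.000208 with all 4 libraries), whose lowest library was also replicate 2. Without replicate 4 the EGLN1 call was lost (adjusted p = 0.0889, against 0.00018). EPAS1 and ARNT2 were not called, with adjusted p of 0.0521 and 0.52. EPAS1 lay just outside the threshold and was called in 4 of the alternatives, with adjusted p of 3.85e-06 under total counts without factors, 0.0459 over rows at 1 CPM or more, 0.026 without replicate 2 and 0.0372 without replicate 4.

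The SD of log2 CPM was 0.02 for EPAS1, and 2.82% of 284 protein-coding rows within 1.25 times its level had a smaller one. For ARNT2 the SD was 0.03, with 5.35% of 1626 such rows smaller. For ARNT it was 0.15, with 83.5% of 1488 such rows smaller. The members shared no direction: HIF1A, ARNT and VHL were highest in replicate 1, EGLN1 and EGLN2 in replicate 2, and EPAS1, ARNT2 and HIF1AN in replicate 3.

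**Figure D4:**
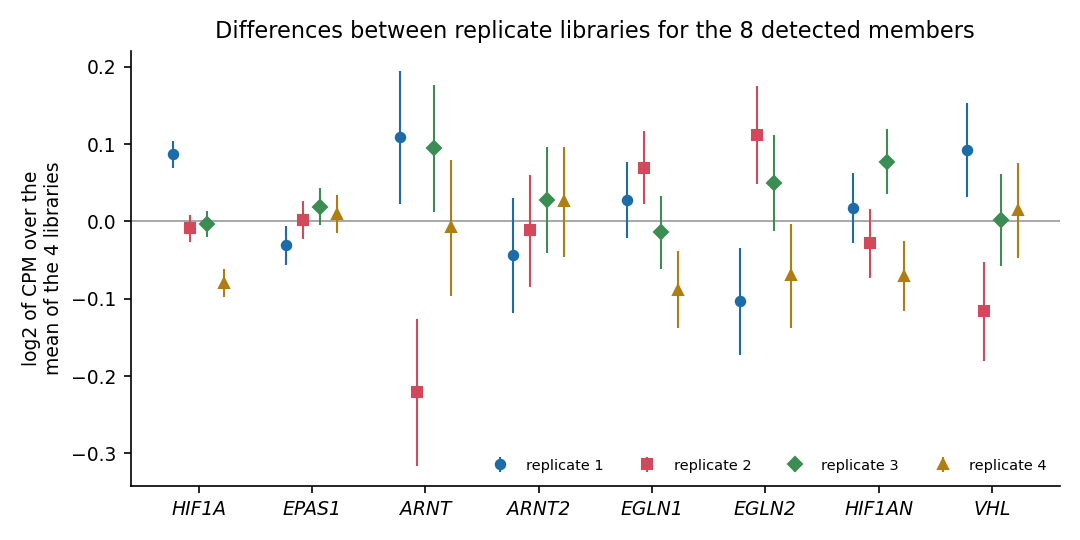
Log2 of each library's CPM over the mean of the 4 KDAC8 knockout libraries for the 8 detected members; bars are exact Poisson 95% intervals and cover counting error only. ARNT in replicate 2 lies farthest from its mean, HIF1A has the narrowest intervals, and EPAS1 and ARNT2 scatter least.

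Rows that overlap the members held few counts apart from NDUFB8 and SPTSSA. HIF1A-AS1 and HIF1A-AS2, antisense to HIF1A, had 15 and 19 counts over the 4 libraries. RP11-618G20.1, which shares 148 exonic bases with HIF1A on the same strand, had 3.26 ± 0.637 CPM, or 0.516% of the HIF1A counts. The 3 antisense rows in ARNT2 held 6, 26 and 8 counts. RP11-411B6.6, opposite HIF1AN, had 0.948 ± 0.165 CPM. The other overlapping rows (RNU6-924P and AC007193.10 at HIF3A, RNU6-1309P at ARNT, CTC-490E21.12 at EGLN2 and AL356806.3 at EGLN3) had 0 counts, and EPAS1, VHL and EGLN1 were overlapped by none. The processed copy EGLN1P1 had 0, 2, 0 and 11 counts, and HIF1AP1 had 0.

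The partners of VHL in the ubiquitin ligase were present in full. The adaptors ELOB and ELOC had 59.4 ± 8.64 and 56.0 ± 6.96 CPM, the scaffold CUL2 109 ± 5.39 CPM and the RING subunit RBX1 43.1 ± 2.29 CPM. Per kilobase of exon ELOB, ELOC, CUL2 and RBX1 stood at 52.7, 11.4, 21.2 and 13.9 CPM, beside 11.9 CPM for VHL. Per kilobase of coding sequence they stood at 123, 167, 47.5 and 133 CPM, beside 78.7 CPM for VHL. The places of ELOC and CUL2 against VHL thus depended on the length. All 4 varied between libraries, as did 67.3% of rows at 1 CPM or more, a share that rose with level. ELOB and ELOC were highest in replicate 2, where VHL was lowest.

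Of 8 genes that act on HIF or EGLN stability, 7 were detected, beside 58.8% of protein-coding rows. Of the 7 tested, 6 varied, beside 67.3% of rows at 1 CPM or more, a share that rose with level. The chaperones HSP90AB1 and HSP90AA1, which hold HIF1A, had 1517 ± 24.9 and 1285 ± 44.3 CPM, and RACK1, which competes with them, had 1622 ± 112 CPM. The ligases SIAH2 and SIAH1, which target EGLN proteins, had 48.1 ± 2.45 and 27.8 ± 0.958 CPM. STUB1 had 84.7 ± 9.84 CPM, the deubiquitinase USP20 had 19.9 ± 1.78 CPM, and VHLL was not detected. Of 7 coactivators and competitors, 6 were detected (58.8% of protein-coding rows) and 5 of 7 tested varied (59.2% of rows tested). EP300 and CREBBP, the coactivators whose binding HIF1AN blocks, had 108 ± 9.26 and 97.8 ± 8.83 CPM. CITED2, which competes for the same surface and is itself a HIF target, had 64.0 ± 2.47 CPM, while its relative CITED4 had 0.936 ± 0.239 CPM. The coactivators NCOA1, NCOA2 and NCOA3 had 36.0 ± 2.47, 39.8 ± 1.41 and 40.0 ± 2.07 CPM.

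Among 11 other bHLH-PAS factors, 7 were detected, a share near the 58.8% of protein-coding rows. The highest per kilobase were the clock factors BMAL2 (25.1 CPM per kilobase) and NPAS2 (14.6), the dioxin receptor AHR (8.46) and CLOCK (6.25). BMAL1 was the most variable detected member, at 9.24 ± 0.932 CPM. SIM1 and NPAS4 had 0 counts in all 4 libraries, and NPAS1 (0.855 ± 0.303 CPM) and NPAS3 (0.0237 CPM) were below the threshold. Of 8 members tested, 5 varied, a share near the 59.2% of rows tested. ARNT2 and ARNT, at 4.81 and 3.83 CPM per kilobase, lay between BMAL2 and BMAL1 (1.37 CPM per kilobase), which fill the corresponding dimer position in the clock.

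Of 15 other enzymes that use oxygen and mostly 2-oxoglutarate, 13 were detected, beside 58.8% of protein-coding rows. Of the 14 tested, 10 varied, beside 59.2% of rows tested and 67.3% of rows at 1 CPM or more. The aspartyl hydroxylase ASPH was highest at 45.7 CPM per kilobase, followed by the collagen prolyl hydroxylase P4HA1 (16.1), the cysteamine dioxygenase ADO (15.1) and the ribosomal prolyl hydroxylase OGFOD1 (13.2). The 3 last lay above EGLN1 (11.3) per kilobase of exon. Per kilobase of coding sequence, only ADO (67.6) of these 3 lay above EGLN1 (64.1), with OGFOD1 at 47.0 and P4HA1 at 31.1. P4HTM, a transmembrane prolyl hydroxylase reported to act on HIF, was the most variable detected member at 8.84 ± 0.945 CPM. P4HA3 had 0.699 ± 0.161 CPM, and RIOX1, the lowest, had 0, 0, 4 and 3 counts.

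Known HIF targets were largely expressed. In glucose metabolism all 16 were detected (58.8% of protein-coding rows were), with a median of 27.1 CPM per kilobase, beside a median of 6.32 over detected protein-coding rows. ENO1 (455 CPM per kilobase), ALDOA (258), LDHA (171) and TPI1 (149, also the most variable) led them, and PFKFB4, a kinase that sets glycolytic flux, was lowest at 2.5. Of the 16, 13 varied, beside 67.3% of rows at 1 CPM or more, a share that rose with level. Many of these enzymes are made in most growing cells, so their levels do not show HIF activity.

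Outside glucose metabolism, 20 of 24 targets were detected, beside 58.8% of protein-coding rows, with a median of 5.34 CPM per kilobase. Of 20 tested, 14 varied, near the 67.3% of rows at 1 CPM or more. Among the highest per kilobase were the transferrin receptor TFRC (90.9), the mitophagy receptor BNIP3L (38.3) and the mTOR inhibitor DDIT4 (37.3). The 4 targets not detected, named here after their values were seen except for ADM, stood at 0 to 0.0312 CPM per kilobase, a range that includes EGLN3 at 0.0164 CPM per kilobase. ADM, which encodes adrenomedullin, had 0 counts in all 4 libraries. PLIN2, a lipid droplet coat protein, had 6, 2, 3 and 5 counts, ANGPTL4 had 1, 2, 4 and 3, and EPO, the erythropoietin gene, had 0, 4, 0 and 3. CA9, a surface carbonic anhydrase often used as a hypoxia marker, had 4.52 CPM in replicate 1, 2.61 in replicate 2, 4.26 in replicate 3 and 4.49 in replicate 4, a mean of 3.97 ± 0.912 CPM. It was the most variable detected target of this list, with a range of 1.73 times (chi-square adjusted p = 2.51e-05), and without a control library no level here can be called raised or lowered by the knockout.

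**Figure D5:**
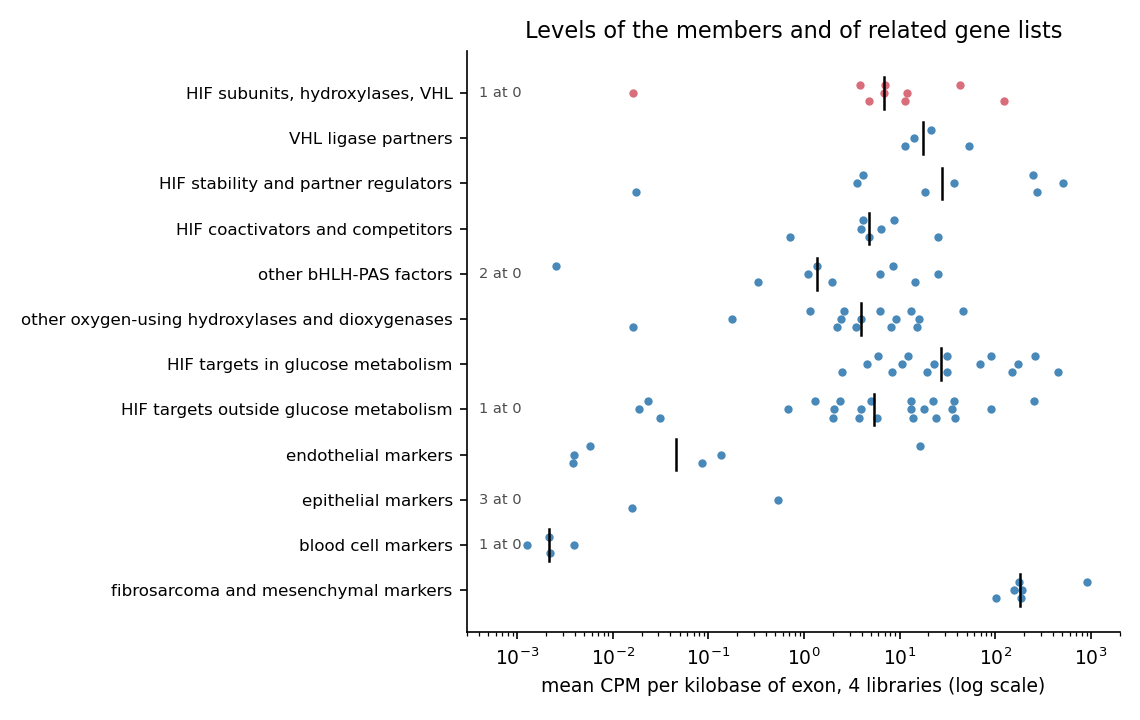
Mean CPM per kilobase of exon (log axis) of each gene over the 4 KDAC8 knockout libraries, for the members (top row) and the related gene lists; each point is a gene, vertical lines are medians over matched genes, and genes with 0 counts are given as a number at the left. All 16 HIF targets in glucose metabolism lie at 2.5 or more, while EGLN3 lies among the undetected targets outside it.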

How the data were processed

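Total RNA from frozen pellets was depleted of ribosomal RNA for paired-end sequencing, per the labels' protocols. The submitters' processing notes name RSEM 1.3.3, Bowtie2 2.5.4, Trimmomatic 0.39, DESeq2 1.46.0 and GRCh38. No source used here gives their roles, the annotation release or strand use. The authors deposited expected counts per Ensembl gene, unscaled, with 10.6% to 11.9% of values per library not whole. Reads of similar or overlapping genes can be split between rows. No column of per-sample values was left unused.

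Counts were rounded for tests. CPM was taken over library sizes scaled by TMM factors of 0.963 to 1.03 (edgeR 4.0.16), and DESeq2 1.42.0 size factors were an alternative. Positions and lengths came from GENCODE release 29, in which 94.0% of IDs were found and which may differ from the authors' release. Log2 ratios used a pseudocount of 0.01 CPM per kilobase. With 1 group, no test between groups was possible, so genes were compared within libraries and libraries with each other. The 9 planned ratios became 8, since HIF3A has no counts, and it is given as a bound. Promoter windows (250 bases before to 50 after a start) came from RefSeq. The 107 list genes were all matched, 7 of them under an older name. Members and lists were chosen with earlier results of these data known. Named were the members, overlapping rows, all genes of lists of 8 or fewer, and otherwise the 4 highest per kilobase, the lowest and the most variable detected gene. A gene that this rule names is not reported here, although list counts include it. Other genes of longer lists were named after their values were seen. The chi-square test was checked on simulated counts with counting noise and, in some rows, a change in 1 library. Those counts lacked the added scatter between real libraries, so the check does not cover it.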

Additional observations from a re-analysis of the deposited data

Results flagged for a closer look

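In 3 of 80 genes checked, 1 library lay far from the other 3, judged by its gap to the nearest library over the whole range (Dixon's 95% critical value). Chance gives about 1 in 20, and no HIF subunit, hydroxylase or VHL was among them. Replicate 2 was the low library for the HIF target CA9 (2.61 CPM, against 4.26 to 4.52 CPM in the others) and for CD44 (1432 CPM, against 1592 to 1612 CPM). ESRP1, an epithelial splicing factor, had 1 count in replicate 3 (0.0221 CPM, against 0.0946 to 0.0989 CPM in the others), a difference of 3 counts.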

How the results depend on the processing

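The 8 detected members stayed 8 under both other scalings, the lower and per-kilobase thresholds and without each library in turn, and the members that varied numbered 5 to 6 when a library was left out, 6 to 7 under the other scalings and filters, and 0 when a range of 1.5 times was also required. The level of each member moved by less than its SD under every scaling and left-out library. Of the ratios, EGLN1 over HIF1AN reversed to -0.53 with coding length. HIF1AN over EGLN2 reversed to -0.62 with the longest transcript and rose to 1.34 with coding length. With single libraries left out, HIF1AN over EGLN2 ran from -0.0018 (without replicate 1) to 0.0853 (without replicate 2). EGLN1 over EGLN2 shrank to 0.01 with the longest transcript, with EGLN1 the higher in 1 of 4 libraries. The means of the remaining ratios kept their sign under the lengths, pseudocounts and left-out libraries tried. With a pseudocount of 1 the log2 ratio of EGLN1 to EGLN3 was 3.59, against 8.89 with 0.01, so summed counts are the better guide there. Counts of varying genes without single libraries ran from 3 to 7 for the coactivators (3 without replicate 2), 3 to 5 for the bHLH-PAS factors (3 without replicate 1), and 0 to 1 for endothelial (0 without replicate 1) and epithelial markers (0 without replicate 1 or 2, and 0 under total counts). The coding length of the annotation, chosen after seeing the data, stood in for the RefSeq protein length, which was not run, and the readthrough row was also added afterwards. No paired analysis was possible because the labels give 1 group. Lengths join every annotated exon, whichever transcripts the cells make, and rows with a mean under 10 counts, EGLN3 among them, were tested for variation only without the count minimum.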
